A study of Mus musculus with 366 samples.

Results

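The genes described here are those that build and run the skeletal muscle fibre: its contractile filaments, the proteins that anchor them, the calcium machinery that starts a contraction and the enzymes that feed it. The list held 36 genes chosen by symbol. Of these, 31 had a probe set on the array that carried their symbol alone, out of 17097 genes with such a probe set, and where a gene had several, the one with the highest mean over all arrays stood for it. Mybpc2, Neb, Xirp2, Smpx and Ampd1 had none and were not analysed here. The measured genes were 14 of fast fibres, 7 of slow fibres and 10 used by both, and together they had 50 probe sets.

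Skeletal muscle is made of long fused cells whose sarcomeres, repeats of myosin thick filaments and actin thin filaments, shorten when calcium leaves the sarcoplasmic reticulum and binds troponin. Fast fibres contract quickly and tire early, slow fibres contract slowly on oxidative metabolism, and each kind uses its own versions of myosin, troponin, calcium pump and calcium store. Several slow fibre genes, such as those for the slow myosin heavy chain and the slow troponin C, are also genes of the heart, whereas smooth muscle of the artery wall contracts with a separate set of proteins.

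The expression profiles came from whole aortas, taken from the arch to the mid-abdomen, of 366 female mice of the atherosclerosis hybrid mouse diversity panel (Ath-HMDP), with 1 array per mouse. Each mouse came from a cross between an inbred or recombinant inbred strain and C57BL/6J mice carrying the human transgenes for ApoE-Leiden and CETP. It was an F1 hybrid in all groups except C57BL/6J, where both parents had that background. All groups shared both transgenes, the sex, the age of 24 weeks and the diet, chow for 8 weeks and then Western diet for 16 weeks. The 101 strains were 31 classical inbred strains and the recombinant inbred sets, with 36 strains of BXD, 21 of AXB/BXA, 9 of CXB and 4 of BXH, with a median of 4 and at most 8 arrays per strain. The BXD set includes BXD24/TyJ-Cep290<rd16>/J, whose label names the rd16 allele of Cep290, and it was treated as a BXD strain. Insertion sites and copy numbers of the transgenes were not known, and no aorta without them was analysed here. Replicates are separate mice by their labels, numbered in the order of deposition, and p-values of the limma tests measure the spread among these mice. Permutation p-values, given further on, take strain means as their units. The labels named no array batch.

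Values are log2 of the normalised probe set intensity, so that a difference of 1 is a 2-fold change, and array medians lay between 3.17 and 3.40. The tissue label was checked against marker genes. The smooth muscle myosin gene Myh11 ranged from 4.58 to 11.66 with a median of 9.39. The brown fat gene Ucp1 was high on all arrays, from 12.33 to 13.20. Heart muscle genes were also detected, with a median of 9.67 for the cardiac troponin T gene Tnnt2 and a range of 2.13 to 11.93. The squamous epithelial keratin gene Krt4 had a median of 2.60 but reached 13.03 on 1 array, and the liver gene Alb had a median of 2.54 but reached 12.27. Markers of tissues other than the artery wall were therefore high on some arrays or on all of them. In whole tissue, fewer cells of a type and less RNA per cell cannot be told apart.

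Promoters are shown for 4 members that mark the extremes of the patterns described further on: Acta1 and Tnnc2, the pair most alike from mouse to mouse, Ckm, which stood between them and the heart genes, and Tnnc1, which followed the heart genes. The sequences are the 250 bases before the transcript start from RefSeq on build GRCm38.p6, written 5′ to 3′ on the strand of the gene. Capitals mark E-boxes (CANNTG), the sites that MyoD, myogenin and other basic helix-loop-helix factors bind, and in Acta1 also a CArG box, the site of serum response factor. The regions are chr8:123894776-123895025 on the minus strand for Acta1, chr2:164779735-164779984 on the minus strand for Tnnc2, chr7:19410844-19411093 on the plus strand for Ckm and chr14:31208062-31208311 on the plus strand for Tnnc1.
Acta1: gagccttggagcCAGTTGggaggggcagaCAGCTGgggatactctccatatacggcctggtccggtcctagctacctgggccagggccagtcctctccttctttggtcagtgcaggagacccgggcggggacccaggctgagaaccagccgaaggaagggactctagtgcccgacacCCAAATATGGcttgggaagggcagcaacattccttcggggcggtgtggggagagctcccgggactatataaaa
Tnnc2: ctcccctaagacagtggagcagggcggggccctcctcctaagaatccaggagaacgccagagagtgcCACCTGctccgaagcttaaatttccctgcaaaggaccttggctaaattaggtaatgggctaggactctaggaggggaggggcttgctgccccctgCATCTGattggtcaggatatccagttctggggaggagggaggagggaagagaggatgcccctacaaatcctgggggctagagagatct
Ckm: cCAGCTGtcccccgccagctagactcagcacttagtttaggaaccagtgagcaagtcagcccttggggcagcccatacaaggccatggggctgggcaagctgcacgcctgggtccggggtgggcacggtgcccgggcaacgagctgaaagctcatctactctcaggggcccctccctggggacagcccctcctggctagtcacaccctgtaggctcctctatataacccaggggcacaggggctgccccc
Tnnc1: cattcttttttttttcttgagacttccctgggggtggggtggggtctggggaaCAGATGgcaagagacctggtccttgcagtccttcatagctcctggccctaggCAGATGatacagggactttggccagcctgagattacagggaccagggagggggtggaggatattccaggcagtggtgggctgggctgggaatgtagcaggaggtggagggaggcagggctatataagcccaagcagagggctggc

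Of the 31 measured members, 25 had at least 1 promoter in the RefSeq table, and a member with several promoters was counted when any of them held the motif. All 32851 promoters were counted singly, which can raise the share of members beside theirs. Both strands were searched, and all motifs except the TATA box (TATAAA, searched on the strand of the gene) read alike on both. E-boxes were found in 22 of the 25 members (88.0%) and in 66.2% of all 32851 promoters. The form CAGCTG, which is contained in the E-box count, stood in 14 of 25 (56.0%), among them Acta1 and Ckm, and in 13.0% of all promoters. The binding element of MEF2, a factor of muscle gene expression, was found in Myh1, Myh4, Pvalb and Ttn (16.0%) and in 2.92% of all, and the CArG box in Acta1, Myh4 and Myl3 (12.0%) and in 1.47% of all. TATAAA stood in 4 of 25 members (16.0%) and in 7.59% of all. These matches describe letters in the window and were not tested as binding sites.

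Among the genes of the thick filament, the 3 fast myosin heavy chains ranged from the low end of the scale to near its top. Myh1, the heavy chain of type 2X fibres, had a lowest level of 2.48, a median of 6.05 and a highest of 12.43 over the 366 arrays. For Myh2, of type 2A fibres, these levels were 2.20, 6.10 and 12.87, and for Myh4, of type 2B fibres, 2.39, 4.60 and 12.31. All 3 therefore covered over 9 log2 units within 1 tissue of mice of the same sex, age and diet. For the probe set used here of Myh7, the slow heavy chain gene that the heart also uses, the levels were 3.17, 9.76 and 12.10, and a second probe set of it is described further on.

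Among the myosin light chains, wide and narrow ranges did not follow the fibre type. Mylpf, the fast regulatory light chain, ranged from 3.33 through a median of 6.42 to 13.01, and Myl2, the slow and cardiac regulatory light chain, from 2.35 through 4.27 to 12.30. Myl3, the slow essential light chain, had a median of 6.22 and a highest level of 12.54. Myl1, the fast essential light chain, had the narrowest range of all members, from 9.09 through 10.31 to 12.97, and 112 of 366 arrays (30.6%) lay below 10. Mybpc1, a myosin-binding protein of slow fibres, stayed at a median of 2.71 with a highest level of 8.39.

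The widest range of all members was that of a thin filament gene. Acta1, the actin of the skeletal muscle sarcomere, ranged from 2.74 through a median of 7.57 to 13.53. Its arrays were spread over the whole scale, with 75 arrays (20.5%) below 4, 79 (21.6%) at 12 or above and the rest between. Tnnc2, the calcium-binding troponin C of fast fibres, was spread likewise, from 2.74 through 7.60 to 13.33, with 87 arrays (23.8%) below 4 and 76 (20.8%) at 12 or above. Tnnc1, the troponin C of slow fibres and heart, was not: 219 of 366 arrays (59.8%) lay from 8 to below 10, none reached 12, and 5 were below 4.

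The other troponins of fast fibres were Tnni2, the inhibitory subunit, with a lowest level of 2.42, a median of 6.46 and a highest of 13.12, and Tnnt3, the tropomyosin-binding subunit, at 2.36, 5.44 and 12.80. Their slow counterparts Tnni1 and Tnnt1 had medians of 3.08 and 4.89 and highest levels of 9.84 and 11.27. The slow troponins I and T, which adult heart uses little, thus ran from the low end upwards as the fast genes did, and the slow troponin C, which adult heart uses, did not.

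In the scaffold of the sarcomere, Actn3, the fast fibre actinin, and Myot, which binds actin at the Z-disc, had medians of 3.43 and 3.79 and highest levels of 11.27 and 11.63. Tcap, which caps titin, had a median of 7.90 within 3.62 to 11.32, and titin itself (Ttn) a median of 8.59 within 2.65 to 12.20. Both are also genes of the heart.

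The genes of calcium release and uptake lay near the low end on most arrays and high on some. Atp2a1, the fast calcium pump, had a median of 3.43 and a highest level of 11.83, Ryr1, the calcium release channel, 3.22 and 10.72, and Cacna1s, the voltage sensor that opens it, 2.87 and 8.29. Casq1, the calcium store protein of fast fibres, had a median of 4.37 and Pvalb, the calcium buffer parvalbumin, 3.36, and their highest levels were 10.44 and 11.41. Trdn, which ties the store to the channel and is also used by the heart, had a median of 5.73 and a highest level of 11.10.

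Among the genes of energy supply, Ckm, the cytosolic creatine kinase, ranged from 2.77 through 7.27 to 12.49, and Ckmt2, its mitochondrial counterpart, from 2.46 through 8.43 to 11.99. Mb, the oxygen-binding myoglobin, never fell below 6.70, with a median of 10.38 and a highest level of 12.93. Pygm, the muscle glycogen phosphorylase, had a median of 4.74 and Eno3, the muscle enolase, 8.11, with highest levels of 9.96 and 11.96. Levels of different genes come from different probe sets and were not compared with each other, only their spread over arrays.

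**Figure D1:**
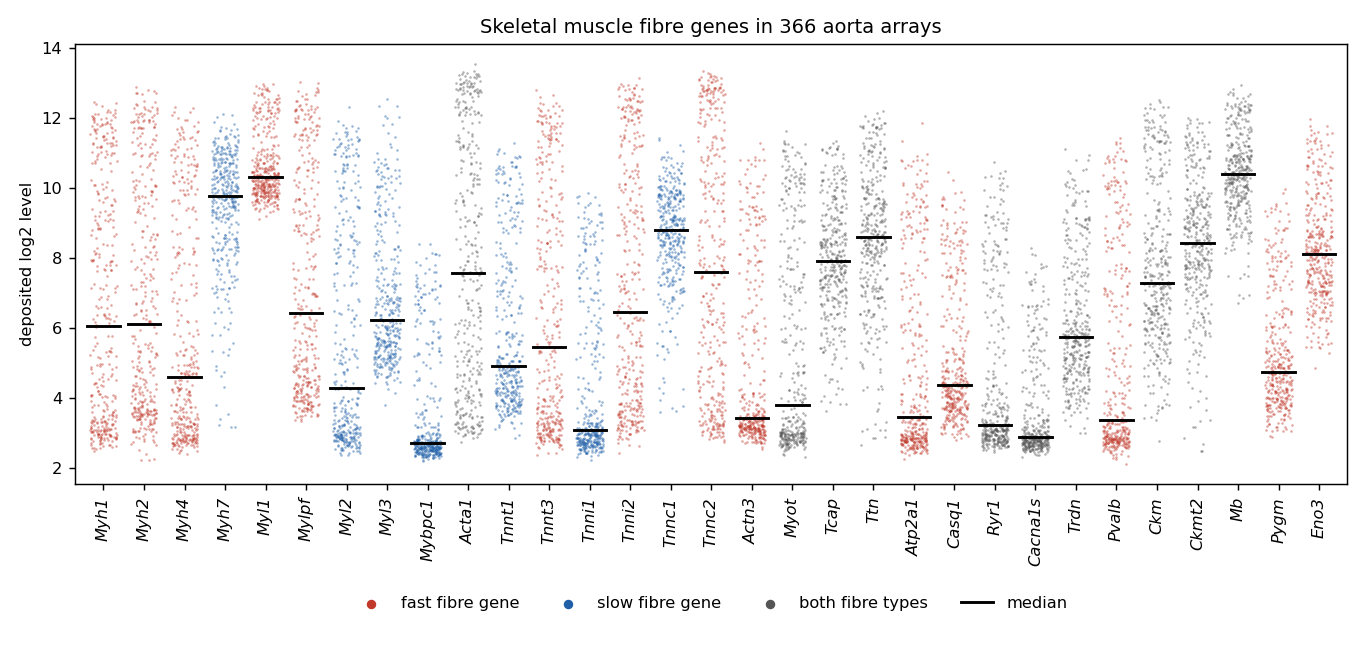
Level of each of the 31 measured members over 366 arrays, by role, on the log2 intensity scale. Each point is an array, coloured by the fibre type of the gene, and the black bar is the median. Acta1 runs from 2.74 to 13.53, whereas Myl1 starts at 9.09.

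The question of how far these levels belonged to the strain was answered with 2 measures over the 360 arrays of the 95 strains with at least 2 arrays: the strain share of variance, an intraclass correlation that is near 0 when mice of a strain are no more alike than mice of different strains, and the SD among mice of the same strain. The strain share was low for all members. It ran from 0.727% for Cacna1s to 10.4% for Tcap with a median of 4.23%, beside a median of 17.9% over all 45141 probe sets. On ranks of the arrays the median was 8.84% for the members and 18.1% over all probe sets. Medians were 4.61% for the fast genes, 4.44% for the slow genes and 3.88% for those of both. The within-strain SD ran from 0.953 for Myl1 to 3.44 for Tnnc2 with a median of 2.27, beside 0.191 over all probe sets.

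The 14 probe sets with the largest within-strain SD of all 45141 were probe sets of members. They were led by Tnnc2 (3.44), Acta1 (3.43), Tnnt3 (3.29), Tnni2 (3.29), Myh1 (3.27) and Myh2 (3.16), and went on through a second probe set of Myh1, Myh4, Myl2, Mylpf, Myot, a second probe set of Myh7, Pvalb and Atp2a1 (2.73). Of the 31 members, 26 had their probe set among the 100 with the largest SD. An SD above 1 was found for 349 probe sets (0.773%), and for 30 of the 31 members. The median SD was 2.89 for the fast genes and 1.96 both for the slow genes and for those of both fibre types.

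**Figure D2:**
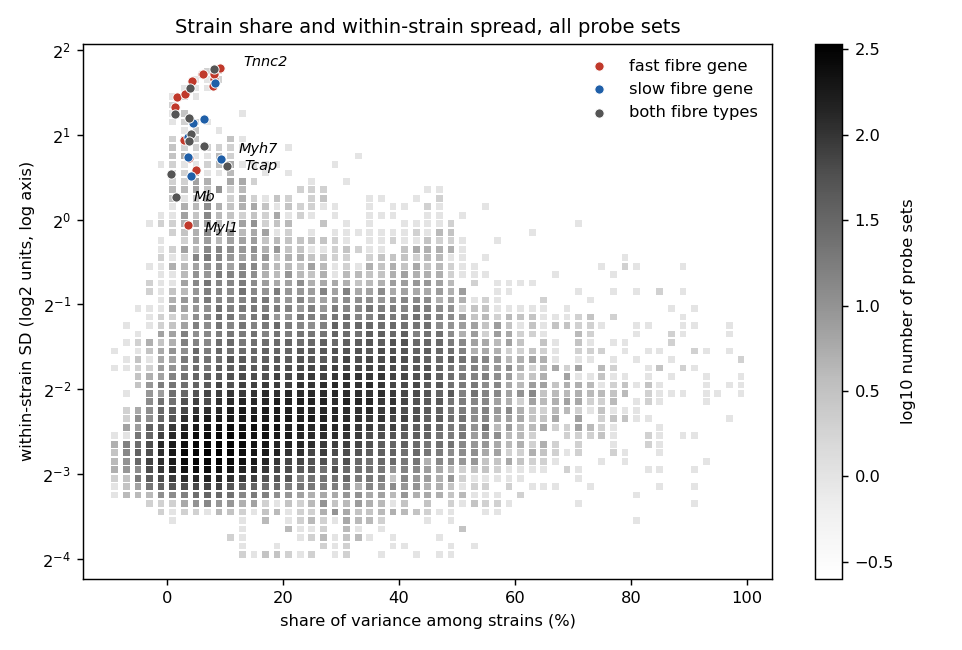
Strain share of variance in percent (x axis) against the within-strain SD in log2 units (y axis, logarithmic) for all 45141 probe sets (shading by the log10 of their number) and the 31 members (points coloured by fibre type), over 360 arrays. The members sit above nearly all other probe sets, at an SD of 0.953 to 3.44, and at a strain share of 0.727% to 10.4%.

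The moderated F test of limma, with Benjamini-Hochberg adjustment over the whole table, called 8 of the 31 members different among strains, where it called 77.0% of all probe sets. The 8 were Tcap (adjusted p = 0.0151), Myh7 (0.0243), Tnnc2 (0.0272), Myl2 (0.0390), Tnni2 (0.0416), Myh2 (0.0431), Acta1 (0.0432) and Mylpf (0.0451), that is 4 of 14 fast genes, 2 of 7 slow genes and 2 of 10 of both. The other 23 had adjusted p-values from 0.0844 (Trdn) to 0.417 (Cacna1s). These calls depended on the weighting and on the arrays used. With limma's array weights 30 members, and 40023 probe sets, were called. When the arrays of 1 replicate number were left out, 0 to 3 members and 29506 to 31262 probe sets were called. This takes an array from most strains, so that the test also has less data. Without CXB1/ByJ or without SM/J, 2 members were called, beside 34527 and 34531 probe sets.

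The spread within strains is best seen in single strains. In C3H/HeJ, with 8 mice, Acta1 was lowest at 3.03, had a median of 5.98 and was highest at 13.22, and this range of 10.19 was the widest of any strain for that gene. In BXD56/RwwJ the 4 mice had Acta1 levels of 13.53, 8.36, 4.68 and 3.52 and Tnnc2 levels of 13.25, 8.62, 5.05 and 2.86. In AXB13/PgnJ the levels of Acta1 were 3.26, 4.49, 12.98 and 13.33. Mice of the same cross therefore held both the lowest and the highest levels of the series, or close to them.

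Some strains had all their mice towards the same end. In CXB1/ByJ the Acta1 levels were 2.98, 2.98, 2.95 and 3.25, and in SM/J they were 5.19, 3.30, 3.12 and 2.83. In FVB/NJ they were 12.44, 10.36, 12.99 and 10.27. The low mice of CXB1/ByJ had Tnnc1 levels of 7.76, 8.49, 9.80 and 9.16, within the middle of that gene's range. These strains were picked after their values were seen. Over the 95 strains, the range among mice of a strain had a median of 6.95 for Acta1 and exceeded 5 in 65 strains, while for Tnnc1 the median was 2.25 and 10 strains exceeded 5. For Myh7 the median range was 2.61 and for Myl1 1.72. Of the 31 members, 30 had a range above 5 in at least 1 strain, and the exception was Myl1.

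**Figure D3:**
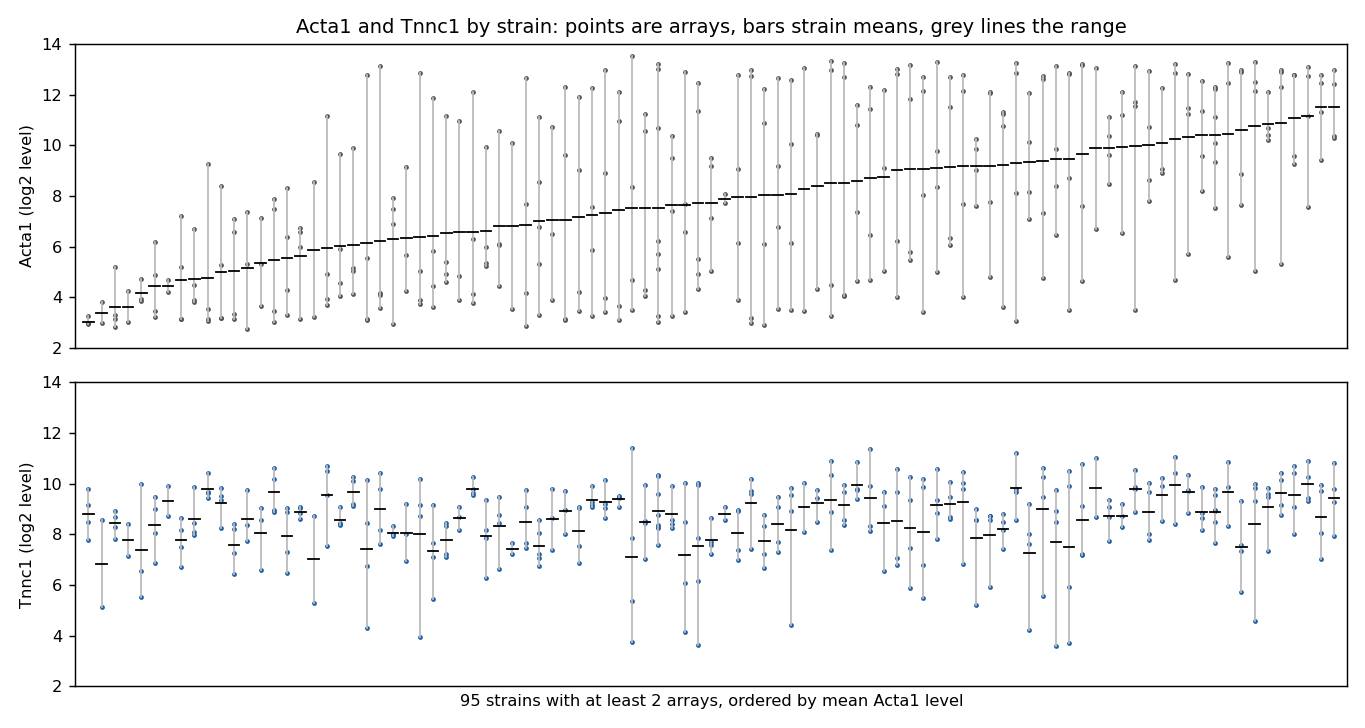
Level of Acta1 and of Tnnc1 in each mouse (points, log2 intensity) of the 95 strains with at least 2 arrays, ordered by the strain mean of Acta1 (x axis), with black bars for strain means and grey lines for the range. For Acta1 mice of the same strain lie far apart, by more than 5 in 65 strains, and for Tnnc1 most mice lie near 8 to 10.

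The strain share also varied with the family of strains. Its median over members was 6.19% among the 31 classical strains and 4.50% among the 64 recombinant strains. Within the recombinant sets it was 5.02% in BXD, 5.13% in CXB, -0.564% in AXB/BXA and -9.62% in BXH, where a value below 0 means that strain means lay closer together than the spread among mice of a strain would give. In the 8 CXB strains, with 31 arrays, members ran from -17.5% to 36.6%, and the highest was Acta1. The strains CXB1/ByJ, with all mice low, and CXB12/HiAJ, with Acta1 levels of 12.90, 12.30, 12.97 and 5.33, belong to this set.

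Members moved together from mouse to mouse. Taking each mouse's deviation from its strain mean over 360 arrays, the median Pearson r over all 465 pairs of members was 0.877, beside a median of 0.00518 over all pairs of the 17097 genes. These are correlations within the same arrays, so that pairs share the RNA sample, and they are given as a description. Among fast genes the median was 0.928, and Tnnt3 and Mylpf reached 0.993. Of the genes of both fibre types, Acta1 had an r of 0.995 with Tnnc2, the highest of all pairs, and Myot 0.990 with Atp2a1. Fast genes and the 3 slow genes that are mainly skeletal had a median of 0.898. Fast genes and the 4 slow genes that are also heart genes had a median of 0.757, and those 4 among themselves 0.533.

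The 4 slow genes that heart also uses differed among themselves. Myl2 moved with skeletal genes, with an r of 0.975 with Myh2 and 0.971 with Tnnt1. Myh7 and Tnnc1 moved with each other (r = 0.924) and less with the rest, down to 0.170 between Myh7 and Tnnc2, the lowest of all pairs. A principal component analysis of the deviations gave the same picture, with 83.5% of the variance on the first component and 9.56% on the second. Myh7 (r = 0.854 with the second component), Tnnc1 (0.729), Ckmt2 (0.483), Ttn (0.473), Tcap (0.454) and Mb (0.427) lay to its positive side, and Tnnc2 (-0.304) and Acta1 (-0.298) to its negative side.

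**Figure D4:**
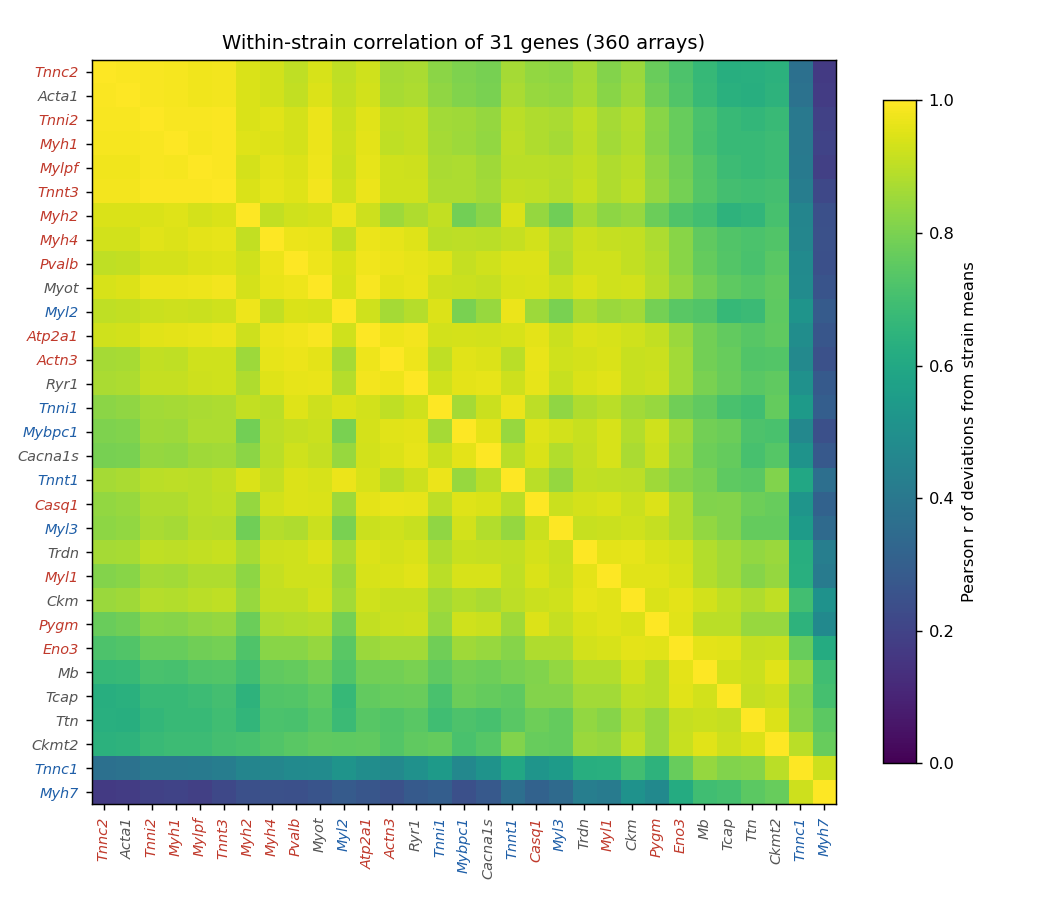
Pearson r between members of their deviations from strain means over 360 arrays (colour scale). Names are red for fast, blue for slow and grey for genes of both fibre types, and the dark rows of Myh7 and Tnnc1, with an r as low as 0.170, contrast with 0.995 between Acta1 and Tnnc2.

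The 2 probe sets of Myh7 behaved differently. The probe set used here, 1448554_PM_s_at, had levels of 3.17, 9.76 and 12.10 (lowest, median and highest), and the other, 1448553_PM_at, had 2.21, 3.23 and 11.52. Their deviations from strain means correlated with an r of 0.327. The brighter probe set followed heart genes, with an r of 0.850 with Tnnt2, 0.816 with Tnni3 and 0.789 with Myl7, and 0.364 with Tnnt1. The dimmer probe set followed slow skeletal genes, with an r of 0.985 with Tnnt1, 0.974 with Tnni1 and 0.983 with Myl2, and -0.0332 with Tnnt2. In the array's naming, the suffix of the brighter set marks probes shared by several transcripts. Which transcripts each probe set detects was not tested, and all results for Myh7 that follow are those of the brighter set unless stated.

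**Figure D5:**
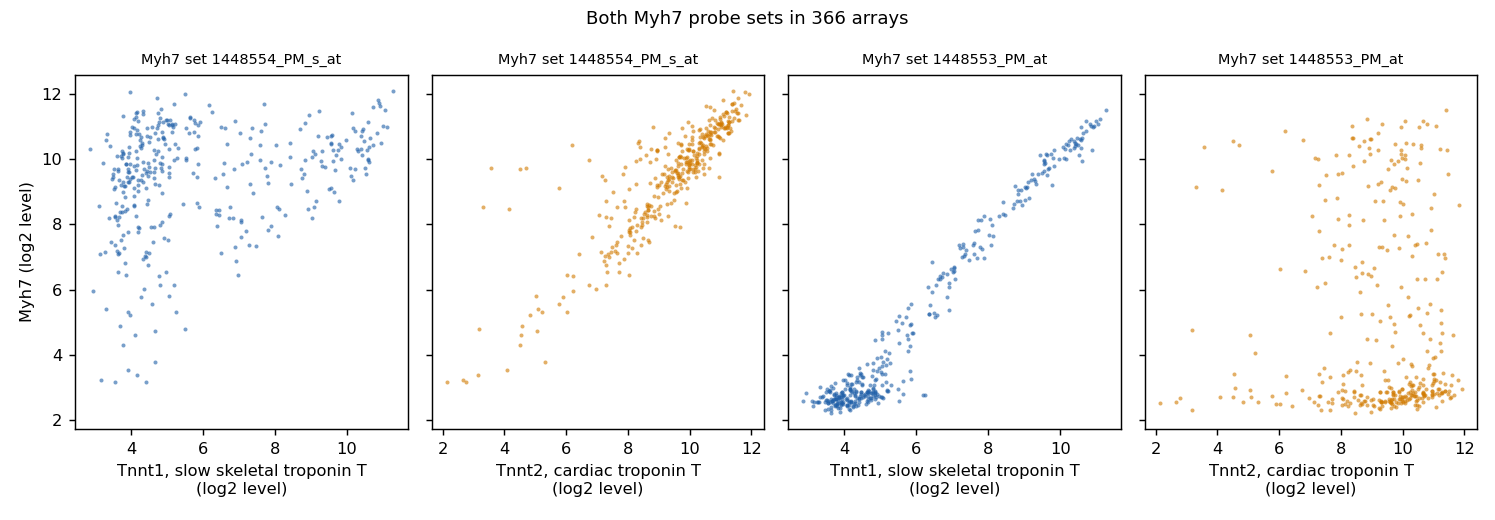
Levels of the 2 Myh7 probe sets (y axis, log2 intensity, each point an array) against slow skeletal Tnnt1 and cardiac Tnnt2 (x axis, log2 intensity). The dimmer set, 1448553_PM_at, rises with Tnnt1 (within-strain r = 0.985) and the brighter set, 1448554_PM_s_at, with Tnnt2 (0.850).

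Other members with several probe sets mostly had similar ones. The probe sets of Ttn, Ryr1, Myl3, Myh4 and Ckm other than those used correlated with the used set at an r of 0.805 or above. For Mb the second set was flat, between 2.44 and 3.29, with an r of -0.125. For Trdn the r ran from 0.110 to 0.965 over 5 further sets, for Myh1 from 0.516 to 0.997 over 3, and for Tnni2 it was 0.494 and 0.977.

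Whether fast and slow versions of the same protein went together over strain means was tested on 11 pairs in the 101 strains. The p-values came from 100000 permutations and were adjusted over the 11 pairs. Strains of a recombinant set share parents, and the permutations treat them as exchangeable. Both genes of a pair were read from the same mice, and members had low strain shares. Such an r therefore also holds variation among mice, which the p-values do not separate from differences among strains. All 11 pairs had a positive r, and 7 passed. The regulatory light chains Mylpf and Myl2 had r = 0.934 (Spearman's rho = 0.929), troponins T Tnnt3 and Tnnt1 r = 0.906 (rho = 0.902), troponins I Tnni2 and Tnni1 r = 0.874 (rho = 0.886), and the essential light chains Myl1 and Myl3 r = 0.871 (rho = 0.864). Each of these had an adjusted p of 1.8e-05, from the smallest p that the permutations can give, 1e-05. Without the 2 strains farthest from the median, r was 0.927, 0.897, 0.863 and 0.863, in that order.

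The actinins Actn3 and Actn2 (r = 0.691, rho = 0.650) and the calsequestrins Casq1 and Casq2 (r = 0.499, rho = 0.480) followed with the same adjusted permutation p of 1.8e-05. Without the 2 farthest strains r was 0.664 and 0.485. Actn2 is the actinin of all fibres and Casq2 the cardiac calsequestrin, so that these pairs do not set fast against slow fibres. The troponins C Tnnc2 and Tnnc1 had r = 0.331 (permutation p = 0.0007, adjusted 0.0011) and rho = 0.320 (adjusted p = 0.0019), with r = 0.332 without the 2 farthest strains. The other 4 pairs did not pass. The calcium pumps Atp2a1 and Atp2a2 had r = 0.202 (adjusted permutation p = 0.06), and Myh1, Myh2 and Myh4 had r = 0.130, 0.125 and 0.116 with Myh7 (adjusted permutation p = 0.23, 0.23 and 0.25). In the setting with second probe sets, which reads Myh7 from its dimmer set, these 3 pairs had r = 0.913, 0.946 and 0.824 (adjusted permutation p = 1.2e-05 each). Myh1 and Myh4 were also read from their second sets there, while Myh2 kept its set. Within strains, the r of deviations ran from 0.203 for Myh1 and Myh7 to 0.919 for Mylpf and Myl2.

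Markers of some other cell types moved with the members or against them. Each member was set against the mean level of 12 marker lists over the 101 strains, 372 relations in all, with permutation p-values adjusted over them. The cardiomyocyte list (15 of 16 genes measured, Myh6 not, with a mean level of 4.12 to 10.09 over arrays) had positive correlations with 10 of 31 members that passed: Myh7 (r = 0.916, rho = 0.922, adjusted permutation p = 0.00019), Tnnc1 (r = 0.831, rho = 0.842), Ckmt2 (0.650), Ttn (0.642), Tcap (0.597), Mb (0.589), Eno3 (0.542), Ckm (0.355), Pygm (0.328) and Myl1 (0.276). Over these 10, rho ran from 0.307 to 0.922, and without the 2 farthest strains r ran from 0.268 to 0.908. For Acta1, Tnnc2 and Tnni1 it was 0.00705, -0.0127 and 0.00200. The 10 were 8 of the 12 members that heart also uses, leaving out Acta1, Myl2, Myl3 and Trdn, together with Pygm and Myl1. Of all genes outside the list, 38.6% had a positive r with it, and 2.93% a positive r as large as that of Myl1, the smallest that passed. Members share their arrays and move together, so that their counts for a list are not independent. As for the pairs, an r over strain means also holds variation among mice. The part of heart muscle in these levels was not tested.

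Adipocyte markers ran against the members. With the general adipocyte list (5 of 8 genes measured, with a mean level of 10.87 to 11.75) all 31 correlations over strains were negative, from -0.582 to -0.171, and 23 passed (74.2%), beside 41.5% of all genes with a negative r and 14.5% with one as strong as the weakest that passed. With the brown adipocyte list (7 of 10 genes measured) all 31 were negative, from -0.436 to -0.117, and 14 passed (45.2%), beside 45.1% and 13.7% of all genes. Their part in the levels of the members was not tested. The smooth muscle list (10 of 12 measured, with a mean level of 5.17 to 10.18) had 10 positive correlations with members, and 3 passed (9.68%), all positive, beside 18.9% of all genes with a positive r as strong, so that the share of members was below the background. The Schwann cell list had 31 positive correlations and 11 passed (35.5%), beside 52.3% of all genes with a positive r and 11.6% with one as strong. The endothelial list had 4 that passed (12.9%), 1 of them positive. Of all genes, 21.4% had a positive r as strong with it and 24.5% a negative one. Macrophage markers gave 1 negative correlation that passed (3.23%), beside 3.86% of all genes. Fibroblast markers gave 1 positive one (3.23%), beside 16.4%. None passed for the sympathetic neuron or cartilage list.

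The squamous epithelium list (12 of 12 measured) was low on most arrays, with a median of its mean level of 2.71, and reached 9.64. Over strains it had 29 positive correlations with members and 7 passed: Myl1, Myl3, Mybpc1, Actn3, Ckm, Pygm and Eno3, with Myl3 highest (r = 0.421, rho = 0.307). Of all genes, 42.2% had a positive r with this list and 7.43% one as strong as the weakest of the 7. For Pygm, r was 0.335 and rho 0.0181, and without the 2 farthest strains r was 0.229. Values of single arrays, picked after they were seen, are given beside this. In C58/J replicate 3, the array with the highest Krt4 of all (13.03), Acta1 was 13.15 and Tnnc2 13.16, the slow gene Myl3 had its highest level of the series, 12.54, and Mybpc1, of slow fibres, was 8.39, while Tnni1 was 3.89, Tnnt1 4.66, Myl2 3.03, Myh7 3.79 and Tnnc1 3.59, the lowest Tnnc1 of the series. The other mice of that strain had Tnnc1 levels of 9.77, 8.94 and 8.48.

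In NOD/ShiLtJ, the mouse with a Krt4 of 12.95 had an Acta1 of 13.04, a Tnnt1 of 6.32 and a Tnni1 of 4.54, and its strain mate with a Krt4 of 2.54 had an Acta1 of 3.48. High levels of fast genes were also found with Krt4 low. In A/J the 3 mice had Krt4 levels of 2.40, 2.22 and 2.61 and Acta1 levels of 4.66, 13.20 and 12.87, with Tnni1 at 2.73, 9.55 and 9.11. In BXD56/RwwJ replicate 1, with the highest Acta1 and Tnnc1 of the series (13.53 and 11.43), Krt4 was 2.81 and the liver gene Alb was at its highest, 12.27. The 28 arrays high in squamous markers were left out in 1 setting, chosen after seeing the data. It called 4 members in place of 8 among strains, and 33489 probe sets in place of 34765. The median within-strain r of members was then 0.886 in place of 0.877. The hepatocyte list had no correlation over strains that passed, while 28 of 31 were positive.

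Further genes of muscle were read from 5 lists. Of 16 measured genes of the sarcomere outside the members, 6 were called by the F test among strains, and their deviations had a median r of 0.807 with the mean of the fast members. The highest were Myoz1, a Z-disc protein (0.976), Klhl41 (0.961) and Tmod4, which caps thin filaments (0.960), and the lowest was the probe set of Tpm3 used here (0.0203), while its 3 other probe sets had 0.962, 0.945 and -0.0355. Of 12 measured genes of excitation-contraction coupling 5 were called, with a median r of 0.639 led by Jsrp1 (0.932) and Stac3 (0.907), and with Pln, the phospholamban of heart, at -0.0404. The share called by the test in both lists was below the 77.0% of all probe sets.

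Of 8 measured genes of the neuromuscular junction, where motor nerves meet the fibre, 4 were called, with a median r of 0.288, and the acetylcholine receptor subunits Chrna1 (0.745) and Chrnb1 (0.684) were highest. Chrnd, Chrne, Musk and Colq never exceeded 3.39, 2.98, 3.58 and 3.72 on any array, at the low end of the scale, where an r carries little. Of 8 measured myogenic and satellite cell genes 3 were called, with a median r of 0.514, and Myf6, a myogenic factor of mature fibres, was highest at 0.885, whereas Pax7, which marks satellite cells, stood at 0.186 and never exceeded a level of 2.93. Of 10 further energy genes 6 were called, with a median r of 0.754, led by Pfkm, the muscle phosphofructokinase (0.900), while the cytochrome oxidase gene Cox7a1, which brown fat and heart use as well, had the largest strain share of that list, 54.1%, and an r of -0.0883. The shares called by the F test were below the 77.0% of all probe sets in these 3 lists too.

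The genes outside the list whose deviations were most like the mean of the members over the 360 arrays were Nrap (r = 0.975), Klhl41 (0.972), Tmod4 (0.969), Ankrd23 (0.968), Rtn2 (0.965), Rpl3l (0.959), Myoz1 (0.959), Lmod3 (0.958), Klhl40 (0.949) and Smtnl1 (0.949). Of these 10, 6 were also in the sarcomere list. Nrap ran from 2.84 through a median of 5.21 to 10.61, and Smtnl1 from 2.31 through 2.80 to 9.42.

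The F1 mice of the other parents of the recombinant sets were compared with the C57BL/6J mice, which have that background from both parents. These 4 contrasts share the same 6 C57BL/6J arrays. In C57BL/6J, Acta1 was 7.51 at the lowest, 10.61 at the median and 12.29 at the highest. The 3 A/J mice had 4.66, 13.20 and 12.87, the 4 BALB/cJ mice 11.71, 13.12, 3.50 and 11.53, and the 5 DBA/2J mice 12.44, 4.91, 11.33, 5.53 and 4.33, while the 8 C3H/HeJ mice ran from 3.03 to 13.22. In all 4 contrasts the groups overlapped. The differences in Acta1 from C57BL/6J were -0.18 (SE 2.41) for A/J, -0.46 (SE 2.20) for BALB/cJ, -2.89 (SE 1.84) for C3H/HeJ and -2.72 (SE 2.06) for DBA/2J.

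By limma's moderated test with adjustment over all probe sets, 0 of 31 members were called in each contrast, where 4.94% of all probe sets were called for A/J, 6.31% for BALB/cJ, 8.91% for C3H/HeJ and 3.69% for DBA/2J. At an unadjusted p below 0.05 there was Mybpc1 for A/J (log2 difference 2.43, SE 1.17, adjusted p = 0.258) and Ckmt2 for DBA/2J (-2.65, SE 1.15, adjusted p = 0.229), and none for the other contrasts. Median differences over members were 1.21 for A/J, 0.77 for BALB/cJ, -0.61 for C3H/HeJ and -1.36 for DBA/2J, with 29, 29, 7 and 1 of 31 members higher than in C57BL/6J. Over all probe sets the medians were -0.0136, -0.0238, -0.0159 and -0.00442. Standard errors ran from 0.511 to 2.42. The medians moved with single mice. Without replicate 1, 2 or 3 of A/J the median for A/J was 3.39, 0.29 or 0.61, with 31, 20 or 22 members higher. Leaving out replicate 1 called 1 member, beside 1889 of 45141 probe sets. Without replicate 2, 3 or 4 of BALB/cJ its median was 0.04, 1.84 or 1.11, with 17, 31 or 25 members higher. For C3H/HeJ the median ran from -1.15 without replicate 3 to -0.39 without replicate 4, and was -1.07 without replicate 7. For DBA/2J it was -2.31 without replicate 1 and -0.83 without replicate 4, and between these without any other. Without 1 mouse of C57BL/6J the median ran from 0.98 to 1.56 for A/J, from 0.58 to 1.13 for BALB/cJ, from -0.97 to -0.38 for C3H/HeJ and from -1.65 to -1.03 for DBA/2J.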

How the data were processed

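RNA from the aortas was hybridised to Affymetrix mouse genome 430 arrays (HT-MG_430 PM in the study's methods, HT_MG-430A in the labels). The authors deposited 1 table of 45141 probe sets by 366 arrays, and its values are log2 intensities, already normalized by RMA after GCOS, per the labels, with no scanner file used here. All columns carried a sample of this series. Gene symbols came from the platform annotation: 28898 probe sets had 1 symbol, 551 several and 15692 none. An array gives no read depth, and the number of mice limits the precision.

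Members and lists were chosen with earlier results of these data known. Genes named are all members, the partners of the fixed pairs, up to 3 genes per list by strain share or by correlation with the fast members, and the 10 genes most like the members' mean, and other names were chosen after their values were seen. Strains with at least 2 arrays (95 strains, 360 arrays) entered limma 3.58.1 in R 4.3.3, with a moderated F test among strains and 4 contrasts against C57BL/6J, Benjamini-Hochberg adjusted over all probe sets at 0.05. The strain share is the intraclass correlation of a one-way analysis of variance. Pairs of fast and slow genes were tested over 101 strain means by Pearson's r and Spearman's rho with 100000 permutations, two-sided, in SciPy 1.17.1 under Python 3.11.15. The pair of Mybpc2 and Mybpc1 was planned and not run, since Mybpc2 was not measured. Scripts were tested on simulated data. The highest r between 2 arrays, over 5000 probe sets, was 0.996, so no array was taken as a repeat deposit. Alternatives covered scaling, normalization, other probe sets, subsets of strains and leaving out strains, arrays or arrays high in hepatocyte or squamous markers. High meant above the median by more than 3 median absolute deviations, scaled to match the SD of a normal distribution, which gave 16 and 28 arrays. Promoter sequences came from RefSeq, GRCm38.p6.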

Additional observations from a re-analysis of the deposited data

Results flagged for a closer look

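In the 75 strains with 4 to 10 arrays, the highest or lowest mouse was compared with its nearest strain mate by Dixon's ratio of gap to range. Chance meets this rule in about 1 in 20 groups of normally distributed values. Levels of members need not be so distributed, and the rate over all probe sets was not computed. Over the 31 members this gave 2325 tests, of which 333 (14.3%) were met, 283 of them by a high mouse. Members share their arrays and are not independent, so that these counts overlap: BTBR T<+> tf/J replicate 2 and BXD61/RwwJ replicate 3 were far above their strain mates for many members at once. Tnni1 met the rule most often, in 21 of 75 strains, each time with a high mouse, and Ckmt2 least often, in 1. The rule uses the range of a group, so that it is also met where all levels lie close together.

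For Acta1 the rule was met in 11 strains, in 7 by a high mouse. The high mice were BTBR T<+> tf/J replicate 2 at 13.11 (nearest strain mate 4.18), BXD61/RwwJ replicate 3 at 12.87 (5.04), BXD43/RwwJ replicate 3 at 11.17 (5.41), LG/J replicate 2 at 11.15 (4.93), MA/MyJ replicate 1 at 9.92 (6.00), BXD84/RwwJ replicate 2 at 9.27 (3.54) and CXB1/ByJ replicate 4 at 3.25 (2.98). The last lay at the low end of the scale with its strain mates. The low mice were BALB/cJ replicate 3 at 3.50 (nearest 11.53), NZB/BlNJ replicate 4 at 3.62 (10.77), BUB/BnJ replicate 1 at 5.05 (12.15) and CXB12/HiAJ replicate 4 at 5.33 (12.30).

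For Tnnc1 the rule was met in 6 strains, in 5 by a low mouse: C57BLKS/J replicate 2 at 4.44 (nearest 8.94), BUB/BnJ replicate 1 at 4.57 (9.32), BXD75/RwwJ replicate 4 at 5.22 (8.55), BXA4/PgnJ replicate 4 at 5.91 (8.58) and CXB8/HiAJ replicate 4 at 7.34 (9.48). The high mouse was BXD11/TyJ replicate 4 at 9.07 (8.44). BUB/BnJ replicate 1 was the one mouse to meet the rule for both genes.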

How the results depend on the processing

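The number of members called among strains, 8 in the report, was 8 with arrays centred on their medians, quantile normalization, the arrays high in hepatocyte markers left out, strains with at least 3 arrays, or adjustment over bright probe sets, and 6 with second probe sets. In these settings 32923 to 38486 of 45141 probe sets were called, and 21649 of 22570 bright ones. The count of members was 5 with trend and robust settings (34809 probe sets), 30 with array weights (40023) and 1 in classical strains alone (27769). It was 1 in recombinant strains alone (29156) and 4 without the arrays high in squamous markers (33489), a setting chosen after seeing the data. Leaving out the arrays of 1 replicate number gave 0 to 3 members, beside 29506 to 31262 probe sets. It gave 0 without replicate 3, where limma also gave 0 members at an unadjusted p below 0.05. Leaving out 1 strain gave 2 to 8 members, beside 33899 to 34976 probe sets. Of the 95 strains, 20 moved the count of members by more than 1.5 times. The median strain share of 4.23% was 8.84% on ranks of the arrays, beside 18.1% over all probe sets, and 3.54% to 5.16% without 1 strain and 3.56% to 6.08% without 1 array. The median within-strain r of 0.877 was 0.861 with second probe sets and 0.874 to 0.881 without 1 array. The count of 0 members called in the contrasts with C57BL/6J was 1 with array weights, for DBA/2J, beside 6178 of 45141 probe sets. It was 0 to 1 without 1 array, with 1 only without A/J replicate 1, beside 1889 probe sets for A/J. The 7 of 11 correlated pairs were 10 with second probe sets and 7 to 8 without 1 strain. With second probe sets the pair of Atp2a1 and Atp2a2 turned to an r of -0.0579. Of the calls for single members and pairs, 478 kept their side of the threshold and their direction, 49 lost significance, 25 gained it and this 1 turned. The causes were not tested. No paired analysis was possible because replicate numbers follow the order of deposition and pair no mice across strains. With a median of 4 mice per strain, the number of mice limits the precision.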
